A study of Mus musculus with 9 samples.

Results

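The 40 genes described here encode the folding and quality control machinery of the endoplasmic reticulum (ER) of bone marrow-derived macrophages (BMDMs), with the sensors and regulators of the unfolded protein response. They were chosen by name, for what their proteins are known to do, from a list proposed with earlier results of these same libraries in view, so counts over the list describe it and are no independent evidence of a direction. All 40 were found once each among the 28379 genes of the deposited table. Of these, 39 were among the 17002 genes that passed the filter on low counts, and Derl3 was not. The cells came from the bone marrow of C57BL/6J mice, and every culture held M-CSF (20 ng/ml), the growth factor of macrophages, for 48 h. The PBS group had nothing further. The RANKL group had RANKL (100 ng/ml), the cytokine that turns macrophages into osteoclasts. The third group, RANKL + Vit D + K, called the vitamin group here, had the same RANKL together with 1000 nM calcitriol (active vitamin D) and with menaquinone-4 (a vitamin K). The labels give 20 µM menaquinone-4, while the methods of the study give another dose. Each group had 3 libraries, and no group received a single vitamin or vitamins without RANKL. The methods speak of pooled RNA without saying how many mice or cultures stand behind a library, so the p-values measure only the spread between these samples.

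Proteins that are secreted or sit in membranes enter the ER through the Sec61 translocon, are bound by the HSP70 chaperone BiP (Hspa5) and its J protein partners, pass through the calnexin and calreticulin cycle if they carry sugars, and receive disulfide bonds from the protein disulfide isomerases. Proteins that fail to fold are pulled back to the cytosol and degraded by the proteasome, a route called ER-associated degradation (ERAD). IRE1 (Ern1), ATF6 and PERK sense unfolded proteins: IRE1 splices the Xbp1 transcript into the form that encodes an active transcription factor, ATF6 is cut and enters the nucleus, and PERK slows translation and raises ATF4. Gene counts do not tell spliced from unspliced Xbp1, cut from uncut ATF6, or one phosphorylation state from another.

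Depth was nearly equal, with 65915112 to 68229647 counted reads per library. The summed FPKM (fragments per transcript length, scaled to library size) of 6 macrophage markers was 2208 to 2382 with PBS, 1664 to 2066 with RANKL and 1342 to 1407 with vitamins. Summed FPKM of 6 osteoclast markers ranged from 10.7 to 16.7, from 449.8 to 950.5 and from 29.8 to 73.2 in the same order. The sum of 7 neutrophil markers ranged from 9.27 to 95.3, from 9.32 to 110.3 and from 0.493 to 1.5, with Ly6g, Elane, Mpo, Camp and Ltf at 0 in all 3 libraries with vitamins and Ly6g also at 0 in the RANKL group. The sum of 5 B and plasma cell markers, of cells rich in ER, came to 2.01 to 4.01, 16.99 to 23.7 and 3.95 to 7.18, with Mzb1 at 0 in the PBS and RANKL groups and Jchain at 0 with vitamins. The sum of 3 dendritic cell markers was at most 0.0487 with PBS, 0.315 to 0.556 with RANKL and at most 0.135 with vitamins, with Flt3 at 0 in the last. For 6 stromal or osteoblast markers it was 1.11 to 1.18 with RANKL and 1.23 to 1.78 with vitamins, with Sp7 at 0 in both and Alpl at 0 in the latter. Macrophage, osteoclast, B and plasma cell and dendritic cell sums thus did not overlap between PBS and RANKL or between RANKL and vitamins. The stromal sum was higher and the neutrophil sum lower with vitamins than with RANKL. Of 4 stromal markers tested, however, 1 passed higher and 2 lower with vitamins against RANKL, beside 16.4% and 17.2% of all genes. Their median log2 fold change was -2.89. The part of these cells in the results below was not tested. In bulk RNA, fewer cells of a type and less RNA per cell cannot be told apart. Replicate 2 had the lowest mean log2 CPM of the members in each of the 3 groups, by little with PBS and RANKL. In the vitamin group it stood apart from replicates 1 and 3 (7.09 against 7.51 and 7.40), so the main results are given with and without it. Fold changes and log2 CPM also use a scaling factor for each library (TMM), from 0.891 to 1.11, which FPKM values lack. A small change can thus differ in direction between these scales.

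With RANKL alone, Calr was the one member to pass the test in the higher direction. Calr encodes the calcium-binding lectin chaperone calreticulin, and stood for 1 of 39 members (2.56%), beside 2.35% of all genes tested. No member passed in the lower direction by edgeR's quasi-likelihood test, where 1.26% of all genes did. At an unadjusted p under 0.05 there were 5 members higher and 5 lower, beside 9.96% and 8.65% of all genes. The median log2 fold change of the members was -0.07, against -0.04 for all genes. By DESeq2, 4 members passed in the higher direction (Calr, Pdia4, Pdia6 and Sdf2l1) and 1 in the lower (Derl1), beside 6.18% and 3.86% of all genes in the same fit. In limma on log2(FPKM + 0.1), 6 were higher, beside 3.56% of all genes. When only the PBS and RANKL libraries were fitted, 8 were higher and 1 lower, beside 6.32% and 4.29%. Without replicate 1 of the vitamin group 2 were higher, beside 2.78%, and without its replicate 2 the counts were 7 higher and 1 lower, beside 5.46% and 5.23%. That library enters this comparison only through the filter, the scaling and the estimate of the spread that all 9 libraries share.

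With vitamins D and K added to RANKL, 25 of 39 members rose (64.1%), beside 16.4% of all genes tested, and none passed in the lower direction, beside 17.2% of all genes. The median log2 fold change was 0.53 for the members and -0.04 for all genes. In 11 members (28.2%) the fitted fold change was over 2, as it was in 10.8% of all genes. At an unadjusted p under 0.05 there were 27 members higher and 2 lower, beside 21.1% and 23.6% of all genes. DESeq2 called 25 higher and 0 lower, beside 19% and 21.6%, and limma on log2(FPKM + 0.1) called 23 higher and 2 lower (Calr and Dnajc3), beside 12.8% and 23.3%. By role, the rise took in 5 of 5 genes of the HSP70 and HSP90 group (its exchange factor Sil1 included), 4 of 5 oxidoreductases, 4 of 5 sensors and regulators and 7 of 10 ERAD genes tested, with 2 of 4 translocon genes, 1 of 4 J proteins (Sec63, which also has a J domain, is counted with the translocon), 1 of 3 lectin cycle genes and 1 of 3 small luminal proteins. These differences between roles were not tested.

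**Figure D1:**
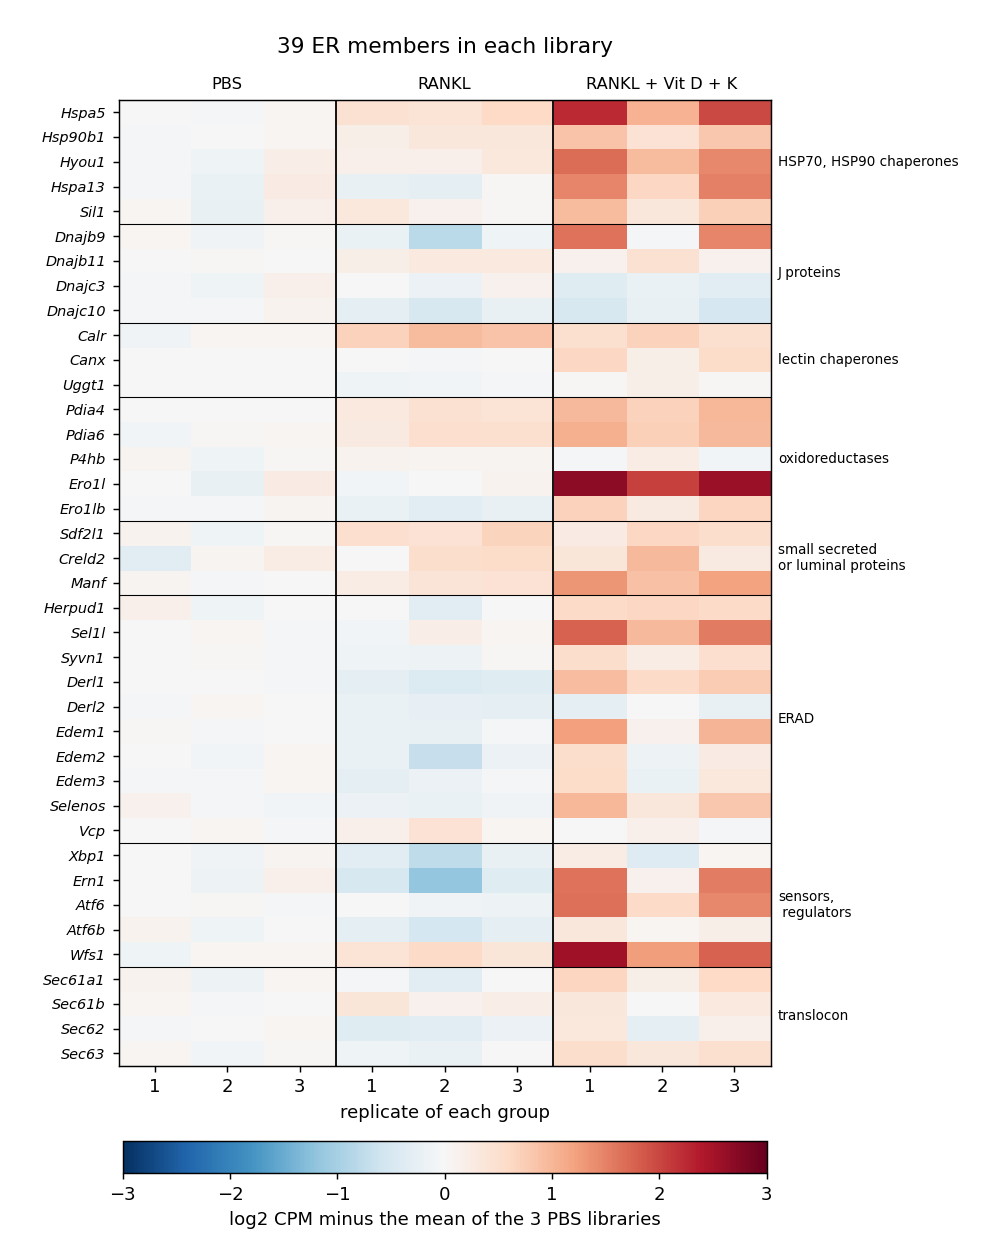
Levels of the 39 tested members (rows, grouped by role) in the 9 libraries (columns, by group and replicate), as log2 CPM (counts scaled to library size) minus the mean of the 3 PBS libraries. The RANKL columns stay pale, with Calr the darkest red row and Ern1 the darkest blue in replicate 2, while the columns with vitamins are red for the HSP70 family, Ero1l, Sel1l, Ern1, Atf6 and Wfs1, more weakly in replicate 2.

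**Figure D2:**
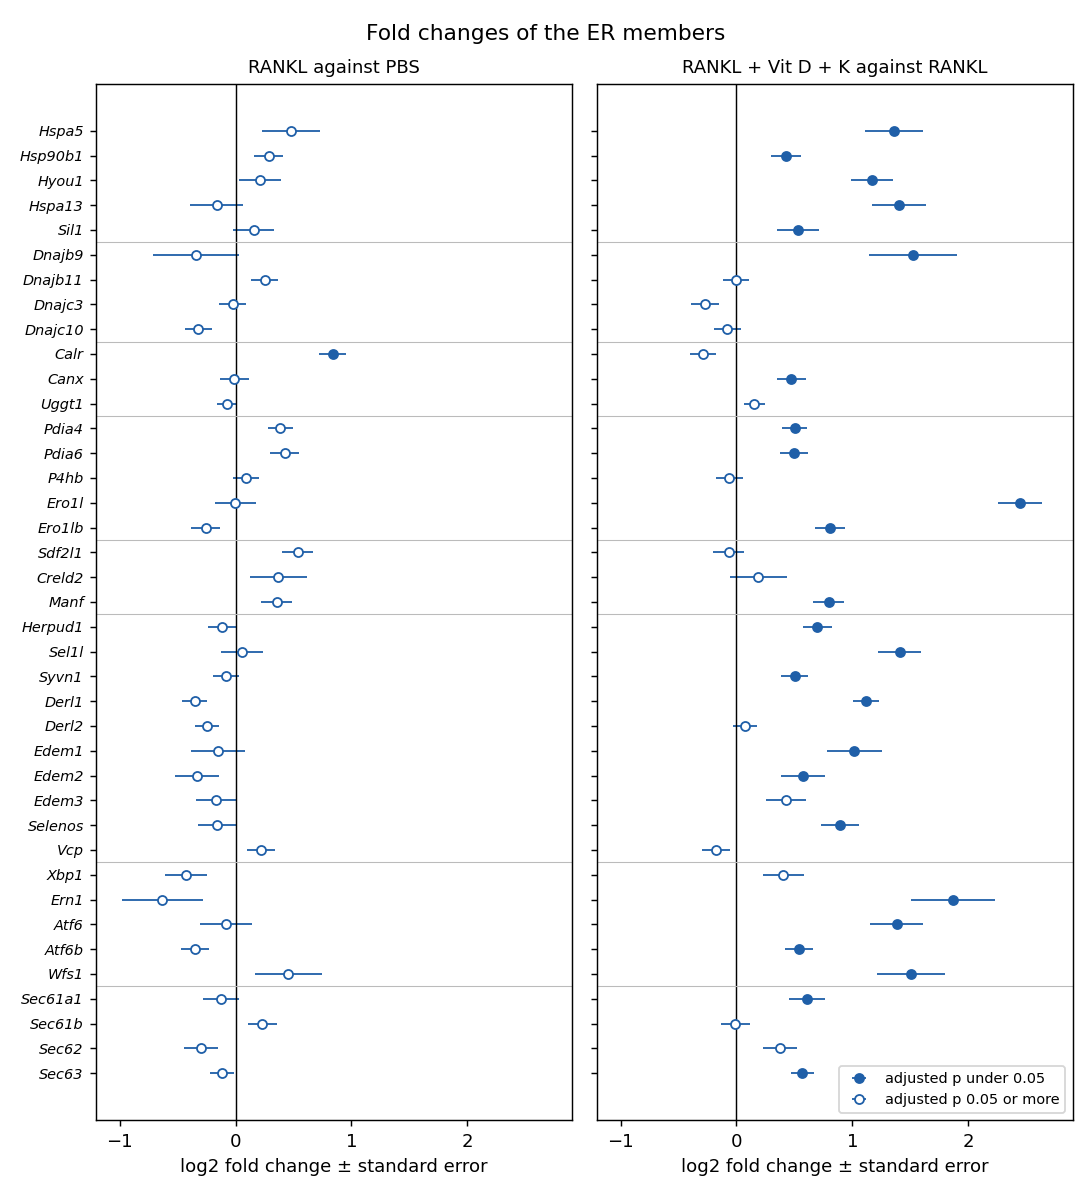
Log2 fold change with its standard error for each of the 39 members, for RANKL against PBS (left) and for RANKL + Vit D + K against RANKL (right), with filled points at an adjusted p under 0.05. On the left 1 point is filled (Calr) and 25 are filled on the right, all of them above 0, with Ero1l the farthest at 2.45.

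The HSP70 and HSP90 chaperones Hspa5, Hyou1, Hspa13 and Hsp90b1 and the exchange factor Sil1, 5 of 5, rose with the vitamins, and none passed the test with RANKL alone. Hspa5 (ENSMUSG00000026864, GRCm38 chr2:34771970-34777547, plus strand) encodes BiP, the most abundant HSP70 of the ER lumen. Its FPKM was 92.1, 91 and 94.5 in the PBS libraries, 135, 141 and 146 in the RANKL libraries and 400.4, 208 and 352 with vitamins. The 3 groups did not overlap, and the spread was much wider with vitamins, at 320.3 ± 100.2 (SD, n = 3), than with RANKL, at 141 ± 5.81 (SD, n = 3). The vitamins raised it by a log2 fold change of 1.36, SE 0.25, adjusted p = 0.00466. RANKL against PBS gave a log2 fold change of 0.48, SE 0.25, adjusted p = 0.35, which missed the threshold, with every RANKL library above every PBS library. Here and below, such separation was not counted over all genes. With 3 libraries against 3, an exact two-sided permutation p cannot fall below 0.1. Without replicate 2 of the vitamin group the RANKL value of Hspa5 passed, at an adjusted p of 0.0173. Hyou1, a large HSP70 relative that exchanges the nucleotide of BiP, had FPKM of 13.2, 13 and 15.7 with PBS, 16.6, 18 and 18.4 with RANKL and 40.9, 29.2 and 36.4 with vitamins. It rose by a log2 fold change of 1.17, SE 0.18, adjusted p = 0.00232. Hspa13, a microsomal HSP70, gave 6.11, 5.57 and 7.28, then 5.75, 6.0 and 6.74, then 16, 10.4 and 17. It rose by a log2 fold change of 1.40, SE 0.23, adjusted p = 0.00313. In both genes every library with vitamins lay above every PBS and RANKL library. The PBS and RANKL libraries of Hspa13 overlapped, and those of Hyou1 overlapped in log2 CPM though not in FPKM.

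Hsp90b1, the HSP90 of the ER (GRP94), had a smaller fitted change than BiP, a difference that was not tested. Its FPKM was 109.7, 116 and 117 with PBS, 137, 166 and 154 with RANKL and 189, 167 and 193 with vitamins (log2 fold change 0.43, SE 0.13, adjusted p = 0.0324). Other annotated genes overlap 15.7% of its exon bases, the antisense 1810014B01Rik among them, so part of its count is uncertain. Sil1, another exchange factor of BiP, was the lowest of the 5, with 4.59, 3.9 and 4.81, 5.9, 5.55 and 4.74 and 7.86, 6.1 and 6.94 FPKM in the same order (log2 fold change 0.53, SE 0.18, adjusted p = 0.0486). Neither call was firm: that of Hsp90b1 was lost when any 1 of 7 libraries was left out (adjusted p from 0.0514 to 0.122) and that of Sil1 when any 1 of 8 was (adjusted p from 0.0557 to 0.165).

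Of the J proteins, which bring clients to BiP and start its ATPase, 4 form 1 group here, of which Dnajb9 rose with the vitamins. Another member with a J domain, Sec63, is described with the translocon. Dnajb9 (ERdj4), a J protein that also binds IRE1, had FPKM of 17.4, 15.8 and 16.9 with PBS, 15.6, 11 and 16.1 with RANKL and 47.4, 17.3 and 44.2 with vitamins. Its log2 fold change over RANKL was 1.52 with an SE of 0.38 and an adjusted p of 0.0146. Replicate 2 lay within the range of the PBS libraries and far below the other two, the widest spread of any member in that group (SD 0.94 in log2 CPM). The call was lost without replicate 3 (adjusted p = 0.0516). Dnajb11 (ERdj3), a secreted partner of BiP, had 22.6, 33.5 and 23.4 FPKM with vitamins against 27.3, 31.5 and 28.9 with RANKL (log2 fold change 0.00, SE 0.11, adjusted p = 0.98). Dnajc3 (p58IPK), an inhibitor of PERK, had 21.5, 20.6 and 23.2 FPKM with RANKL and 14.4, 19.1 and 15.7 with vitamins, with no overlap (log2 fold change -0.27, SE 0.12, adjusted p = 0.103). Without replicate 2 of the vitamin group Dnajc3 passed in the lower direction, at -0.32 and an adjusted p of 0.0474. Dnajc10 (ERdj5), a J protein that reduces disulfides, had 32.3, 33.8 and 35.5 FPKM with PBS, 30.2, 27.8 and 30.5 with RANKL and 22.3, 31.2 and 23 with vitamins. Neither step passed.

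Among the lectin chaperones, Calr rose with RANKL and Canx with the vitamins. Calr (ENSMUSG00000003814, chr8:84841850-84846934, minus strand) had FPKM of 84.1, 97.7 and 93.8 with PBS, 159, 205 and 176 with RANKL and 117, 161 and 122 with vitamins. RANKL raised it by a log2 fold change of 0.84, SE 0.12, adjusted p = 0.00834, with no overlap, and this was the one member call in that comparison. The libraries with vitamins lay between, above every PBS library, and gave a log2 fold change of -0.29, SE 0.12, adjusted p = 0.084 against RANKL. Replicate 2 was the highest of them and overlapped the RANKL libraries, and without it the difference was -0.37 with an adjusted p of 0.0175. Canx, which encodes the membrane-bound partner calnexin, had 107, 112 and 108 FPKM with PBS, 115, 123 and 116 with RANKL and 155, 133 and 152 with vitamins. It did not pass with RANKL (log2 fold change -0.01, SE 0.12, adjusted p = 0.974). It rose with the vitamins by a log2 fold change of 0.47, SE 0.12, adjusted p = 0.0187. The call was lost without replicate 1 or 3 of either the RANKL or the vitamin group (adjusted p from 0.0526 to 0.0669). Uggt1, the folding sensor that sends glycoproteins back to these chaperones, held between 14.8 and 19.2 FPKM over all 9 libraries (log2 fold change 0.16, SE 0.09, adjusted p = 0.21).

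The largest change of any member was in Ero1l (ERO1α, ENSMUSG00000021831, chr14:45283087-45318572, minus strand), the oxidase that recharges protein disulfide isomerases and makes hydrogen peroxide as it does so. Its FPKM was 10.5, 9.47 and 12.5 with PBS, 10.8, 12.5 and 12.2 with RANKL and 63.1, 48.1 and 62.1 with vitamins. The means were 11.8 ± 0.872 (SD, n = 3) with RANKL and 57.8 ± 8.36 (SD, n = 3) with vitamins. The PBS and RANKL libraries overlapped (log2 fold change 0.00, SE 0.18, adjusted p = 0.999). Every library with vitamins was far above all of them (log2 fold change 2.45, SE 0.19, adjusted p = 0.000235). Ero1lb (ERO1β), its paralog, had 9.91, 10.1 and 10.6, 9.49, 9.23 and 9.16 and 15.2, 13.2 and 15.2 FPKM in the same order. It rose too (log2 fold change 0.80, SE 0.13, adjusted p = 0.00273).

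Among the isomerases that ERO1 recharges, Pdia4 (ERp72) had FPKM of 22.5, 23.1 and 22.1 with PBS, 29.6, 35.3 and 31.5 with RANKL and 40.3, 39.4 and 43.1 with vitamins. The 3 groups stood in steps without overlap. RANKL against PBS gave a log2 fold change of 0.38, SE 0.11, adjusted p = 0.0916. The vitamins against RANKL gave a log2 fold change of 0.50, SE 0.11, adjusted p = 0.00838. Pdia6 (P5), which also binds BiP and IRE1, followed the same steps at 26.7, 30.1 and 29.2, 36.9, 46.9 and 42.2 and 54.9, 50.7 and 53.8 FPKM. The RANKL step gave a log2 fold change of 0.42, SE 0.12, adjusted p = 0.0992. The vitamin step gave a log2 fold change of 0.50, SE 0.12, adjusted p = 0.0146. The RANKL steps of both missed the threshold and passed it without replicate 2 of the vitamin group (adjusted p = 0.0129 for Pdia4 and 0.0209 for Pdia6). The vitamin call of Pdia6 was lost without replicate 1 of the RANKL group or replicate 3 of the vitamin group (adjusted p = 0.0668 and 0.0569). P4hb, the classical protein disulfide isomerase, was the most abundant member in FPKM in the PBS and RANKL groups and did not pass in any comparison. Its FPKM was 193, 171 and 183 with PBS, 211, 221 and 204 with RANKL and 159.9, 230.1 and 165 with vitamins. In FPKM, replicate 2 with vitamins was above every other library, and replicates 1 and 3 were below every PBS and RANKL library. In log2 CPM, replicates 1 and 3 lay within the range of the PBS libraries.

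**Figure D3:**
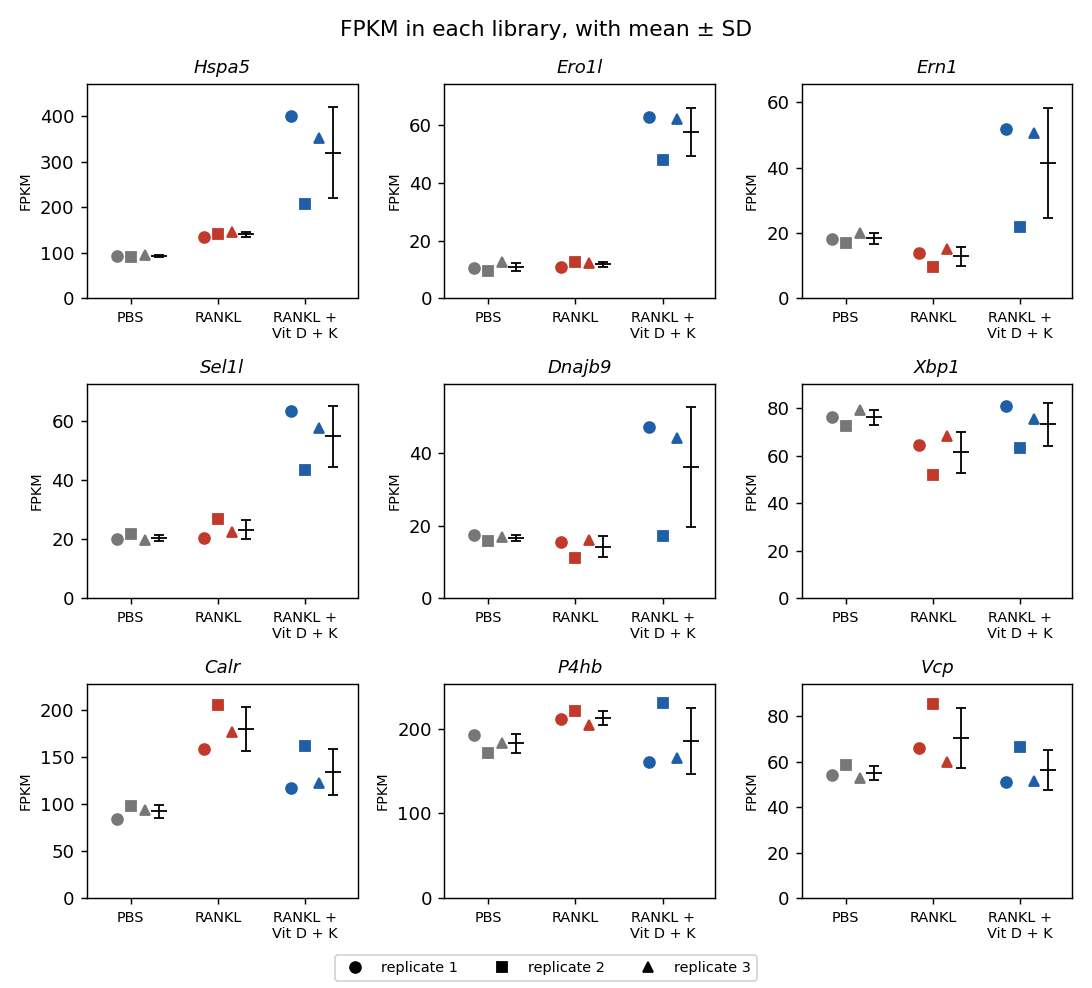
FPKM of 9 members in each library, by group, with a symbol for each replicate number and the mean ± SD of the 3 libraries beside them (linear axes from 0). Hspa5, Ero1l, Ern1 and Sel1l lie higher in all 3 libraries with vitamins than in any RANKL library, Dnajb9 rises in replicates 1 and 3 far more than in replicate 2, Calr is highest with RANKL, and P4hb and Vcp are highest in replicate 2 among the libraries with vitamins.

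Of the small luminal proteins, Manf, a secreted survival factor that binds BiP, rose with the vitamins. Its FPKM was 8.72, 8.17 and 8.17 with PBS, 10.5, 12.6 and 11.9 with RANKL and 19.3, 16.6 and 18.6 with vitamins (log2 fold change 0.80, SE 0.13, adjusted p = 0.00327). Exons of other genes overlap 9.25% of its exon bases. Sdf2l1, a partner of the J proteins, had 18.9, 16.6 and 17.7 FPKM with PBS and 26.8, 27.5 and 29.7 with RANKL, with no overlap (log2 fold change 0.54, SE 0.14, adjusted p = 0.0679). It passed without replicate 1 or 2 of the vitamin group (adjusted p = 0.0379 and 0.0262). With vitamins it ranged between 19.4 and 29.3 FPKM (log2 fold change -0.07, SE 0.14, adjusted p = 0.732). Creld2, a disulfide isomerase-like protein, had 9.73, 17.6 and 9.6 FPKM with vitamins, where replicate 2 was again the highest, and did not pass in any of the 3 comparisons.

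Of the 10 ERAD genes tested, 7 rose with the vitamins. Among those that act with the HRD1 ubiquitin ligase, Sel1l, Syvn1, Herpud1 and Selenos rose, while Derl2 and Vcp did not pass. Sel1l, the adaptor that holds the HRD1 complex together, had FPKM of 19.9, 21.6 and 19.6 with PBS, 20.5, 26.8 and 22.3 with RANKL and 63.3, 43.4 and 57.4 with vitamins. It rose by a log2 fold change of 1.41, SE 0.18, adjusted p = 0.00122. Syvn1, which encodes HRD1 itself, went from 8.71, 9.15 and 9.63 to 11.7, 11.3 and 12.1 FPKM. Its rise (log2 fold change 0.50, SE 0.12, adjusted p = 0.0109) was lost without replicate 1 of the RANKL group (adjusted p = 0.0507). Herpud1, which links HRD1 to the rest of the complex, had 29.9, 25.9 and 29.7 FPKM with RANKL and 38.5, 47.5 and 40 with vitamins (log2 fold change 0.70, SE 0.12, adjusted p = 0.00373). It was the one risen member whose log2 CPM was highest in replicate 2 of the vitamin group. Selenos, a selenoprotein that anchors the p97 ATPase to the ER, went from 23.8, 25 and 24.6 to 46.1, 34.3 and 41.8 FPKM (log2 fold change 0.90, SE 0.16, adjusted p = 0.00443). In these 4 genes no library with vitamins overlapped the RANKL libraries, and none of the 4 passed in RANKL against PBS.

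Derl1, a channel subunit for proteins leaving the ER, had the smallest adjusted p after Ero1l. Its FPKM was 47.6, 48.8 and 45.9 with PBS, 41.3, 41 and 39.1 with RANKL and 83, 76.4 and 77.3 with vitamins. It was lowest with RANKL (log2 fold change -0.35, SE 0.11, adjusted p = 0.12), a value that passed without replicate 2 of the vitamin group at an adjusted p of 0.0204. It rose with the vitamins (log2 fold change 1.12, SE 0.11, adjusted p = 0.000437). Derl2, a paralog, had 8.64, 8.96 and 7.97 FPKM with RANKL and 6.9, 9.98 and 7.62 with vitamins (log2 fold change 0.08, SE 0.10, adjusted p = 0.613). Derl3 was close to the limit of detection, with counts of 5, 0 and 0 in the PBS libraries, 8, 4 and 6 in the RANKL libraries and 3, 6 and 4 with vitamins, and was not tested.

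The EDEM proteins are mannosidase-like factors that mark glycoproteins for disposal, and 2 of the 3 genes passed. Edem1 had 45.5, 48.1 and 49.3 FPKM with RANKL and 105, 57.4 and 94.5 with vitamins and rose by a log2 fold change of 1.02, SE 0.24, adjusted p = 0.0112. Edem2 went from 18, 13.8 and 17.9 to 25.5, 18.8 and 22.1 FPKM (log2 fold change 0.57, SE 0.19, adjusted p = 0.0442). The call was lost when any 1 of 8 libraries was left out (adjusted p from 0.0570 to 0.129). Edem3, at 11.4, 13.4 and 13.6 and 17.8, 12.5 and 15.8 FPKM, did not pass (log2 fold change 0.43, SE 0.17, adjusted p = 0.0859). It passed without replicate 2 of the vitamin group at 0.61 and an adjusted p of 0.00144. Vcp, the p97 ATPase that extracts ERAD clients and serves many other pathways, had 65.8, 85.5 and 60.1 FPKM with RANKL and 51, 66.4 and 51.6 with vitamins and passed in no comparison.

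Among the sensors, the transcript of IRE1 rose with the vitamins and that of its target Xbp1 did not pass. Ern1 (ENSMUSG00000020715, chr11:106394650-106487852, minus strand) had FPKM of 18.2, 16.8 and 19.9 with PBS, 13.9, 9.46 and 15 with RANKL and 51.9, 21.8 and 50.5 with vitamins. RANKL against PBS gave a log2 fold change of -0.63, SE 0.35, adjusted p = 0.387, with every RANKL library below every PBS library. The vitamins raised it by a log2 fold change of 1.87, SE 0.36, adjusted p = 0.00556. Replicate 2 with vitamins was above the PBS libraries by little in FPKM, within their range in log2 CPM, and below the other two by more than 2-fold. Xbp1 had 76.4, 72.6 and 79.2 FPKM with PBS, 64.6, 51.7 and 68.2 with RANKL and 80.8, 63.3 and 75.3 with vitamins. The libraries with vitamins overlapped both other groups (log2 fold change 0.40, SE 0.18, adjusted p = 0.112). It passed without replicate 2 of the vitamin group at 0.56 and an adjusted p of 0.0136. Against PBS, total Xbp1 transcript with vitamins gave a log2 fold change of -0.02 (adjusted p = 0.936).

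Atf6, the sensor that is cut in the Golgi, had FPKM of 16, 16.6 and 15.3 with PBS, 17.2, 17 and 15.2 with RANKL and 46.3, 25.9 and 41.9 with vitamins. It rose by a log2 fold change of 1.38, SE 0.23, adjusted p = 0.00326. Its paralog Atf6b, a weaker activator, went from 29, 26.5 and 29 to 38.1, 37.3 and 35.5 FPKM (log2 fold change 0.54, SE 0.12, adjusted p = 0.00979). Against PBS it did not pass (0.18, adjusted p = 0.248). Wfs1, an ER membrane protein that restrains ATF6 and whose loss causes Wolfram syndrome, was the lowest tested member in FPKM. Its values were 1.18, 1.38 and 1.33 with PBS, 1.84, 2.22 and 1.77 with RANKL and 7.0, 3.37 and 4.25 with vitamins. It rose by a log2 fold change of 1.51, SE 0.29, adjusted p = 0.00555. RANKL against PBS gave a log2 fold change of 0.46, SE 0.29, adjusted p = 0.452 for Wfs1, with no overlap between those libraries.

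Of the translocon genes, Sec63, the membrane J protein that couples BiP to the channel, had 11.4, 11.9 and 12.3 FPKM with RANKL and 15.7, 16.1 and 15.8 with vitamins. It rose by a log2 fold change of 0.57, SE 0.10, adjusted p = 0.00418. Sec61a1, the channel itself, went from 28.4, 24.9 and 29.1 to 39.3, 33.8 and 39.9 FPKM (log2 fold change 0.61, SE 0.15, adjusted p = 0.0161). The call was lost without replicate 3 of the vitamin group (adjusted p = 0.0542). An antisense gene overlaps 8.16% of its exon bases. Sec61b, a small subunit of the channel, had 34.1, 31 and 30 and 28.8, 26.9 and 29.1 FPKM and did not pass (log2 fold change -0.01, SE 0.13, adjusted p = 0.95). Every library with vitamins was below every RANKL library in FPKM, while in log2 CPM the groups overlapped. Sec62, the partner of Sec63, had 17, 18.6 and 19.3 and 23.4, 18.5 and 22 FPKM (log2 fold change 0.38, SE 0.15, adjusted p = 0.0742). It passed without replicate 2 of the vitamin group at 0.53 and an adjusted p of 0.00147, and an antisense gene overlaps 11.7% of its exon bases.

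In log2 CPM, replicate 2 of the vitamin group was the lowest of its group for 24 of the 25 risen members (96%), and for 84.7% of all 2796 genes called higher. The median difference of those 25 members from the RANKL mean was 0.97, 0.50 and 0.90 on the log2 CPM scale in replicates 1, 2 and 3. Among the 14 members that did not pass, replicate 2 was the highest of the 3 in 10. The same library had the highest summed FPKM of osteoclast markers of its group, at 73.2 against 36.8 and 29.8. Without it, 28 members were higher and 2 lower (Calr and Dnajc3), beside 21.2% and 25.2% of all genes in that fit, and Edem3, Sec62 and Xbp1 joined the members that rose. Within the PBS group the members varied little, with a median SD of 0.08 in log2 CPM against 0.19 for all genes, and the medians were 0.11 and 0.24 in the RANKL group and 0.24 and 0.38 with vitamins.

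Against PBS, the vitamin group had 25 members higher, beside 19.8% of all genes, and 1 lower, beside 21% of all genes. This comparison shares its libraries with the other comparisons and is no separate support for either. Hspa5 stood above PBS by 1.84 on the log2 scale (adjusted p = 0.000904), Ero1l by 2.45 (adjusted p = 0.000134), Wfs1 by 1.96 (adjusted p = 0.00127) and Manf by 1.15 (adjusted p = 0.000465). Calr and Sdf2l1 passed here without passing against RANKL, at 0.55 (adjusted p = 0.00575) and 0.47 (adjusted p = 0.0234), while Edem2 and Atf6b passed against RANKL and not here. The lower member was Dnajc10 (log2 fold change -0.40, SE 0.12, adjusted p = 0.024), a call lost when any 1 of 5 libraries was left out (adjusted p from 0.0765 to 0.135). Without replicate 2 of the vitamin group 27 members were higher, with Edem3 (0.45, adjusted p = 0.00718) and Sec61b (0.32, adjusted p = 0.0273) added, and 3 were lower, Dnajc10, Dnajc3 (-0.34, adjusted p = 0.0334) and Derl2 (-0.26, adjusted p = 0.0241), beside 23.3% of all genes higher and 26.5% lower. Another 4 calls were lost without a single library: Dnajb9 (5 libraries), Ern1 and Sec61a1 (4 each) and Sdf2l1 (2), with adjusted p up to 0.0864, 0.0602, 0.0690 and 0.0606.

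The order of the members by mean FPKM shifted with the vitamins. P4hb was first of 40 in the PBS and RANKL groups, and Hspa5 went from rank 4 in both to rank 1, at 320.3 ± 100.2 (SD, n = 3) against 185 ± 39.1 (SD, n = 3). These neighbours did not differ beyond their spread, since P4hb was above Hspa5 in replicate 2 and below it in the other two. Ero1l went from rank 31 in the PBS and RANKL groups to rank 9, and Calr from rank 5 with PBS to rank 2 with RANKL and back to rank 5 with vitamins.

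Ratios of related members were taken within the same library, where library size cancels, in 10 pairs. In 8 of them every library with vitamins lay above every RANKL library, and in 2, Edem1 over Edem2 and Dnajb9 over Dnajb11, the groups overlapped. These pairs were picked after their values were seen, so the ratios are a description. The FPKM ratio of Ero1l to Ero1lb was 1.06, 0.938 and 1.18 with PBS, 1.14, 1.35 and 1.34 with RANKL and 4.14, 3.64 and 4.08 with vitamins. Derl1 over Derl2 was 5.32, 4.97 and 5.10 with PBS, 4.78, 4.57 and 4.91 with RANKL and 12.02, 7.66 and 10.1 with vitamins. For Atf6 over Atf6b the ratios were 0.452, 0.538 and 0.467, then 0.594, 0.640 and 0.525, then 1.22, 0.694 and 1.18. In all 3 pairs every library with vitamins, replicate 2 included, lay above all PBS and RANKL libraries. Edem1 over Edem2 was 2.52, 3.49 and 2.75 with RANKL and 4.11, 3.05 and 4.28 with vitamins, and Dnajb9 over Dnajb11 was 0.571, 0.351 and 0.559 and 2.09, 0.515 and 1.88. In both, replicate 2 with vitamins lay within the range of the RANKL libraries. Hspa5 over Hsp90b1 went from 0.982, 0.849 and 0.952 with RANKL to 2.12, 1.24 and 1.83 with vitamins. Canx over Calr was 1.28, 1.15 and 1.15 with PBS, 0.723, 0.601 and 0.661 with RANKL and 1.33, 0.827 and 1.24 with vitamins. Every RANKL library lay below every PBS library, and every library with vitamins above every RANKL library.

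**Figure D4:**
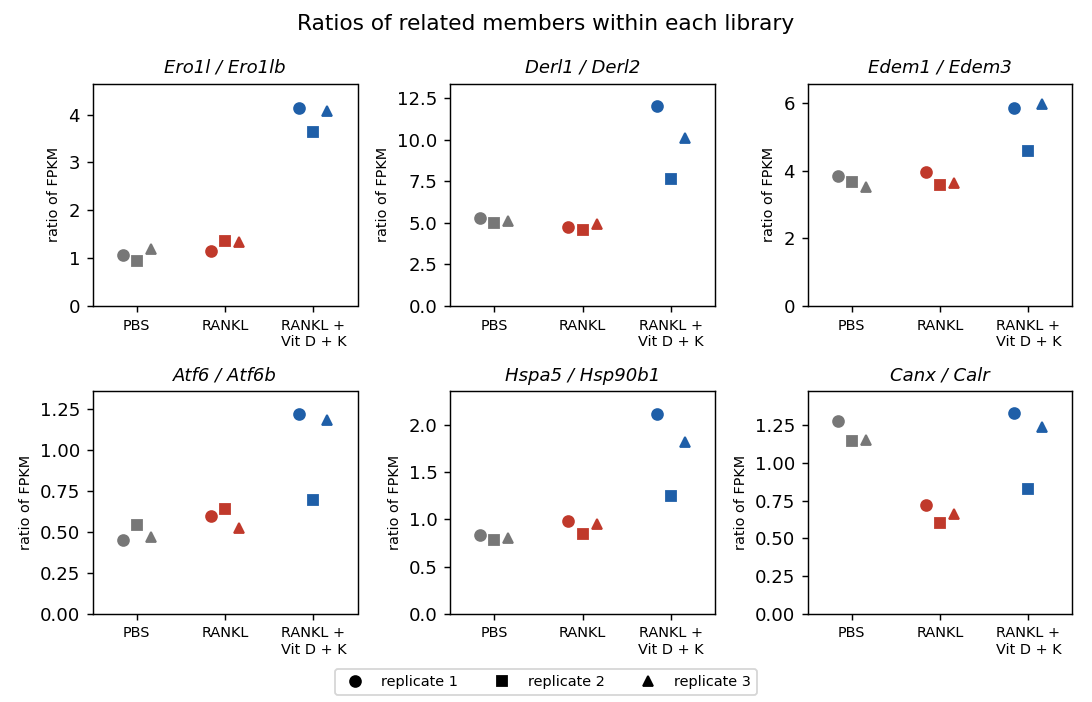
Ratio of the FPKM of related members within each library, by group, with a symbol for each replicate number (linear axes from 0). With vitamins the ratio of Ero1l to Ero1lb lies between 3.64 and 4.14, against at most 1.35 in the other libraries, and Canx over Calr is lowest with RANKL.

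Some members also share sequence at their promoters. The ER stress element was first defined in promoters of genes such as Hspa5, Hsp90b1 and Calr, and the members were chosen as genes of this response, so its share among them is a description and is not independent of the choice. RefSeq promoters on GRCm38.p6, 250 bases before to 50 bases after the start site, were matched for 33 of the 40 members. The ER stress element (ERSE), CCAAT and CCACG with any 9 bases between, searched on both strands, was in 10 of the 33 (30.3%) and in 39 of all 32851 promoters (0.119%). ERSE-II, ATTGG and CCACG with any 1 base between, was in 2 (6.06%) against 0.0365% of all promoters. The parts alone were common: CCAAT, on either strand, was in 75.8% of the members and 37.4% of all promoters, and CCACG in 78.8% and 32.8%. TGACGTGG, which on its other strand holds the second part, was in 1 member (Vcp, 3.03%) against 0.676% of all promoters, and TGACGTGA in 1 (Hspa5) against 0.441%. The matches are printed to show how alike they are, each on the strand that holds it, with the fixed letters in capitals and its genome position and distance from the start site.
Hspa5, chr2:34772025-34772043, plus strand, -65 to -47: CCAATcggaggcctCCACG
Hsp90b1, chr10:86705638-86705656, minus strand, -212 to -194: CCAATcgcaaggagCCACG
Hsp90b1, chr10:86705533-86705551, plus strand, -107 to -89: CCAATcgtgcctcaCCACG
Calr, chr8:84847075-84847093, plus strand, -162 to -144: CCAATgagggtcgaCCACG
Canx, chr11:50325800-50325818, minus strand, -145 to -127: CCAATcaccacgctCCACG
Pdia6, chr12:17266491-17266509, plus strand, -98 to -80: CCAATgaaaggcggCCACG
Ero1lb, chr13:12565682-12565700, minus strand, -201 to -183: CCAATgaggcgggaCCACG
Dnajc3, chr14:118937827-118937845, plus strand, -105 to -87: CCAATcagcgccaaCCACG
Creld2, chr15:88819520-88819538, minus strand, -126 to -108: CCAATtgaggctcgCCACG
Syvn1, chr19:6046532-6046550, plus strand, -44 to -26: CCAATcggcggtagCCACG
Derl3, chr10:75893242-75893260, minus strand, -156 to -138: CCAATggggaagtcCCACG
Herpud1, ERSE-II, chr8:94386377-94386387, plus strand, -52 to -42: ATTGGgCCACG
Dnajb11, ERSE-II, chr16:22857852-22857862, plus strand, 8 to 18: ATTGGcCCACG

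Of 9 tested members with an ERSE in the window, 6 rose with the vitamins, with a median log2 fold change of 0.47. Of 23 tested members without one 12 rose, with a median of 0.50. This split leaves out the 7 members without a matched promoter, all of which rose: Hyou1, Hspa13, Manf, Derl1, Atf6, Sil1 and Sec61a1. Calr, Dnajc3 and Creld2 hold an ERSE and did not pass with the vitamins, while Ero1l, Sel1l, Ern1 and Wfs1 rose by over 2-fold and hold none in this window. A match of letters is a description and not a measured site. In the 250 bases before the start site, Hspa5 holds CCAAT 4 times and CCACG 1 time, and Ero1l, the member with the largest change, holds CCACG 1 time and no CCAAT.

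Other genes of the ER pathway, taken from lists drawn up by function with earlier results of these libraries known, were counted in the same comparison of vitamins with RANKL. Their counts describe the lists and are no independent evidence. All 8 genes of the list for the PERK branch and its targets passed with the vitamins, 7 higher and 1 lower. The lower one was Eif2ak3, which encodes PERK itself (-0.40, adjusted p = 0.0217), named after its value was seen. This list is named for known function, and the activity of PERK was not measured. Atf4, the transcription factor raised when translation slows, had FPKM of 49.7, 50.5 and 49.9 with PBS, 33.9, 48 and 34.1 with RANKL and 408, 216 and 343 with vitamins (log2 fold change 3.24, adjusted p = 0.00027). Its targets Ddit3 (CHOP) and Trib3 rose by 4.50 and 7.62 on the same scale, larger fitted values than that of any ER member. Trib3 had passed in the lower direction with RANKL against PBS (-1.28, adjusted p = 0.0301).

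Over all genes tested in this comparison, 16.4% passed higher and 17.2% lower. Of 11 subunits of the oligosaccharyltransferase, which adds sugars to proteins entering the ER, 4 rose and none passed lower, Krtcap2 (1.48, adjusted p = 0.000736), Stt3b, Stt3a and Rpn2 (named, like Erp44, Pdia5 and Ube2g2, after its value was seen). Of 20 other translocon, signal recognition and signal peptidase genes, 8 rose and none passed lower, with Srprb at 0.57. Of 13 further disulfide isomerases and redox proteins, 4 rose (Tmx4, Tmx3, Erp44 and Pdia5) and 1 fell. Tmx4, a membrane-bound member, rose by 1.61, while Erp29 fell by 0.79 on the log2 scale. Of 16 other ERAD and glycan trimming genes, 6 rose, Ubxn4 at 1.13 and Herpud2 at 1.01 among them, and Ube2g2 fell by 0.54 on the log2 scale. In the COPII coat, which carries folded proteins out of the ER, 7 of 11 genes rose, with Sec24d at 0.87, and Sar1a fell by 0.60 on the log2 scale. Of 9 other stress sensors and inhibitors, 2 rose (22.2%), the proteases Mbtps2 (0.83) and Mbtps1 (0.49) that cut ATF6 in the Golgi. Of 12 ER calcium genes, 2 rose (16.7%, Itpr3, an inositol trisphosphate receptor, and Calu) and Rcn3 fell, a share of risen genes close to that of all genes. Calu also passed higher in RANKL against PBS (0.46, adjusted p = 0.0497). Of the cytosolic HSP70 and HSP90 system, 1 of 8 genes rose (12.5%, Hspa4, 0.34) and 1 fell (Hspa8, -0.40), also near the share of all genes, with 425, 448 and 369 FPKM of Hspa8 in the RANKL libraries and 305, 286 and 256 with vitamins. Against PBS, however, 5 of these 8 genes passed higher with vitamins (62.5%) and 0 lower. In that comparison 64.1% of the ER members and 19.8% of all genes passed higher.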

How the data were processed

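RNA was sequenced from 9 BMDM libraries, 3 per group, and groups and replicate numbers were taken from the sample labels. The authors deposited 1 table of 28379 genes with whole-number counts of reads per gene, not normalized, and FPKM values that the authors scaled to transcript length and library size. The submitters' processing notes name cutadapt 1.9, HISAT2 2.0.4, StringTie 1.3.4d and edgeR, without their roles, and the build hg38, while the table holds mouse genes whose coordinates are those of GENCODE M21 (GRCm38) for 34 of the 40 members, and gene coordinates are given as in the table. Whether counting used the strand is not given in the sources used here, and 12 members share exon bases with another gene, 2 of them over at least 10% of their exon bases.

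Counts were compared with edgeR 4.0.16 in R 4.3.3: filterByExpr left 17002 genes, libraries were scaled by TMM, and the quasi-likelihood test was fitted to all 9 libraries in 1 model of 3 groups, with Benjamini-Hochberg adjustment over all genes tested and a threshold of 0.05. A standard error is the log2 fold change over the square root of F. The 3 comparisons share libraries. FPKM values are given per library or as mean ± SD. Alternatives were DESeq2 1.42.0, limma 3.58.1 on log2(FPKM + 0.1) or log2(FPKM + 1), other size factors and filters, only the 2 groups compared, the replicate number as a block, and each library left out in turn.

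The members and the lists were chosen with earlier results of these data known. All 40 members are named, and of each other list the 3 genes with the lowest adjusted p in the vitamin comparison may be named, others only where the text says so. Motifs were searched in RefSeq promoters, with Ero1l and Ero1lb matched through synonyms. Protein sequences were not used here.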

Additional observations from a re-analysis of the deposited data

How the results depend on the processing

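Of the 1989 values of a member under an alternative, 1807 kept their direction and their side of the threshold, 48 gained a call and 67 lost one. No called value changed sign, and 67 values without a call did. With the vitamins against RANKL, 17 of the 25 calls were kept under every alternative, and Canx, Dnajb9, Edem2, Hsp90b1, Pdia6, Sec61a1, Sil1 and Syvn1 lost theirs under at least 1. The count of risen members was between 22 and 26 under the alternatives that kept all 9 libraries, beside 8.23% to 21.5% of all genes higher. It was 21 with only the 2 groups compared, beside 12%. With each library left out in turn it was between 18 and 28, beside 8.91% to 21.2%. Members lower in that comparison were 0 in the main model, 2 in limma with either pseudocount (Calr and Dnajc3), 1 with the replicate number as a block (Calr, adjusted p = 0.0437, with 26 higher) and 0 to 2 with each library left out. The genes called were 5725 in the main model and 3199 to 8259 with each library left out, the highest without replicate 2 of the vitamin group. limma on log2(FPKM + 0.1) lowered the share of calls that were higher from 48.8% to 35.6% and the median of all genes from -0.04 to -0.16, and log2(FPKM + 1) gave 36.8% and -0.07. These limma fits used FPKM without TMM scaling, so they differ from the main model in scaling as well as in test.

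With RANKL against PBS, 614 genes were called in the main model, 1706 by DESeq2, 1736 with only the 2 groups compared, and 126 to 1903 with each library left out. Members higher were 1 in the main model (beside 2.35% of all genes), 4 by DESeq2 (6.18%) and 3 with at least 50 counts in every library of a group (3.98%). They were 6 in limma with either pseudocount (3.56% and 3.4%) and 8 with only the 2 groups compared (6.32%). With each library left out they were 1 to 7, beside 0.54% to 5.46% of all genes. Members lower were 0 in the main model (beside 1.26% of all genes), 1 by DESeq2 (3.86%) and 1 with only the 2 groups compared (4.29%). With each library left out they were 0 to 1, beside 0.169% to 5.23%. Against PBS, members lower with vitamins were 0 to 3 with each library left out, beside 12.9% to 26.5% of all genes. The cause of these shifts was not tested.

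After removing group means, libraries of the same number correlated at 0.08 to 0.17 for RANKL with PBS, where 6 of 6 libraries correlated best with their own number, a hint from the data that the labels do not give, and at -0.00 to 0.09 for vitamins with RANKL, where 2 of 6 did. For RANKL with PBS, libraries of different numbers correlated at 0.0019 at most. Not every pair of the same number was over 0.1, so the main model did not take the numbers to pair the samples. That cut-off is no test of pairing, and pairing was not tested. Apart from the call of Calr, the replicate block added Xbp1 (adjusted p = 0.0368) to the vitamin calls against RANKL and Creld2 (adjusted p = 0.0495) to those against PBS, and it called 825 genes in RANKL against PBS. With 3 libraries a group, a member that did not pass may still differ.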
